A study of Mus musculus with 6 samples.

Results

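The 10 genes described here make, carry, break down and sense retinoic acid, the active form of vitamin A. They were chosen by name, as Rdh10, Aldh1a1, Aldh1a2, Cyp26a1, Cyp26b1, Crabp1, Crabp2, Rara, Rarb and Rarg, and all 10 were found among the 23837 rows of the array that carry a gene name. Each row is 1 Entrez gene. Expression was measured on 1-colour Affymetrix arrays in primordial germ cells (PGCs), the precursors of the gametes, from male mouse embryos at E13.5. There were 3 samples from Fancg-/- embryos (og2.fvb.fancg -/-) and 3 from WT embryos (og2.fvb.fancg +/+), and each sample held 10000 PGCs pooled from at least 5 embryos. Both genotypes carried the OG2 transgene, an EGFP reporter under the distal Oct3/4 enhancer, and the cells were sorted by this fluorescence with no second marker named. Fancg encodes a protein of the nuclear Fanconi anemia core complex, and the mutant allele holds a Pgk-hygromycin cassette in all tissues of the embryo, so the somatic cells of these gonads were mutant as well.

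Retinol is oxidised to retinal by RDH10, and retinal to retinoic acid by the ALDH1A enzymes. Retinoic acid is bound in the cytoplasm by the CRABP proteins, enters the nucleus to switch on genes through the receptors RARα, RARβ and RARγ, and is cleared by the CYP26 enzymes. In the fetal ovary retinoic acid induces Stra8 and germ cells enter meiosis. In the fetal testis Sertoli and interstitial cells make CYP26B1, which keeps retinoic acid from the germ cells, and male germ cells arrest without entering meiosis.

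The receptors bind DNA as pairs with RXR proteins at retinoic acid response elements, and Cyp26a1 and Rarb are well-known targets of this kind. Promoter windows of 300 bases, 250 before the RefSeq start and 50 after it (GRCm38.p6), were at hand for 8 of the 10 genes, in 13 windows. They were searched on both strands for a direct repeat of 2 half-sites with 5 bases between them (DR5), where a half-site could read AGGTCA as well as GGGTCA, and likewise AGTTCA as well as GGTTCA. This repeat was in 0.0974% of all 32851 windows, and among the 10 genes in those of Cyp26a1 and Rarb. With 1 or 2 bases between the half-sites (DR1, DR2) no window of these genes held it, against 0.222% and 0.268% of all windows. The 100 bases before the start of both genes are shown because they carry the element, with its half-sites in capitals. Those of Crabp1, the gene with the highest fold of the 10, are shown beside them with GGGCGG, or its reverse complement, in capitals.
Cyp26a1 (chr19:37697708-37697807, + strand): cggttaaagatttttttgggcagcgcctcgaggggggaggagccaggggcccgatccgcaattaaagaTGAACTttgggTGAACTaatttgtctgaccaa
Rarb (chr14:16575477-16575576, - strand): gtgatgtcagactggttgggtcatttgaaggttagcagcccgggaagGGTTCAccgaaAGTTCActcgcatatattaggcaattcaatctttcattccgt
Crabp1 (chr9:54764648-54764747, + strand): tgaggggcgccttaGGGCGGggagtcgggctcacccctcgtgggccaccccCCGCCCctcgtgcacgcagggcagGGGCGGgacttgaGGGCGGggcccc
The repeat of Cyp26a1 lay on the opposite strand, from base -32 to -16 relative to the start, and that of Rarb on the gene's own strand from -53 to -37. The Crabp1 stretch held no such repeat and 4 copies of GGGCGG, a hexamer that was found at least once in 35.7% of all windows. It is not particular to Crabp1. Of the 8 genes with a window, 5 held it, and the others were Cyp26a1, Cyp26b1, Rara and Rarg. A match of letters is a description of the window and not a test of binding.

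Values are log2 signals normalized by the authors with RMA, and differences are Fancg-/- minus WT from limma, fitted over all named genes with Benjamini-Hochberg adjustment. No named gene passed an adjusted p under 0.05 (0% of 23837), none of the 10 among them, while 12.4% had an unadjusted p under 0.05. The per-gene test of the study's methods also gave 0, with 1270 genes higher and 1138 lower before adjustment, and limma without WT replicate 1 gave 3, none of them among the 10. The sample medians lay between 4.68 and 4.75 and any pair of samples correlated at 0.989 to 0.994. The targeted gene, Fancg, had 6.38, 6.65 and 6.87 in the samples labelled Fancg-/-, against 6.07, 5.95 and 6.37 in WT samples, and since no source used here places the probes relative to the deleted part this does not check the labels. Every direction given here rests on those labels. The 14 germ cell markers had a mean of 9.38 to 9.40 in Fancg-/- samples and 9.28 to 9.35 in WT samples. Of the 14, 7 had a difference above 0 and 7 below it, between -0.56 (Tdrd1) and 0.56 (Tfap2c). Groups were apart for 4 that were higher and 2 that were lower, against 9.45% and 8.45% of all named genes.

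Crabp1 stood above WT in every Fancg-/- sample, and so did Rarg, while Aldh1a1, Aldh1a2 and Cyp26a1 stood below it. In Fancg-/- samples Crabp1 was 1.73-fold and Rarg 1.51-fold their WT level, and Aldh1a1 was 1.67-fold lower. The remaining 5 genes, Rdh10, Cyp26b1, Crabp2, Rara and Rarb, had overlapping groups and differences between -0.17 and 0.07. At an unadjusted p under 0.05 there were 2 of 10 genes higher, against 6.23% of all named genes, and 3 of 10 lower, against 6.17%. Leaving out any 1 sample again gave 2 higher, while the 3 lower became 2 without WT replicate 3 and 1 without any other sample. The same 5 genes had groups that did not overlap, where 17.9% of all named genes did, and of these 2 were higher and 3 lower, against 9.45% and 8.45% of all named genes. For each of these 5 the exact permutation test, two-sided, gave p = 0.1, below which 3 samples against 3 cannot go. Over the 10 genes the median difference was -0.09, beside 0.01 over all named genes.

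**Figure D1:**
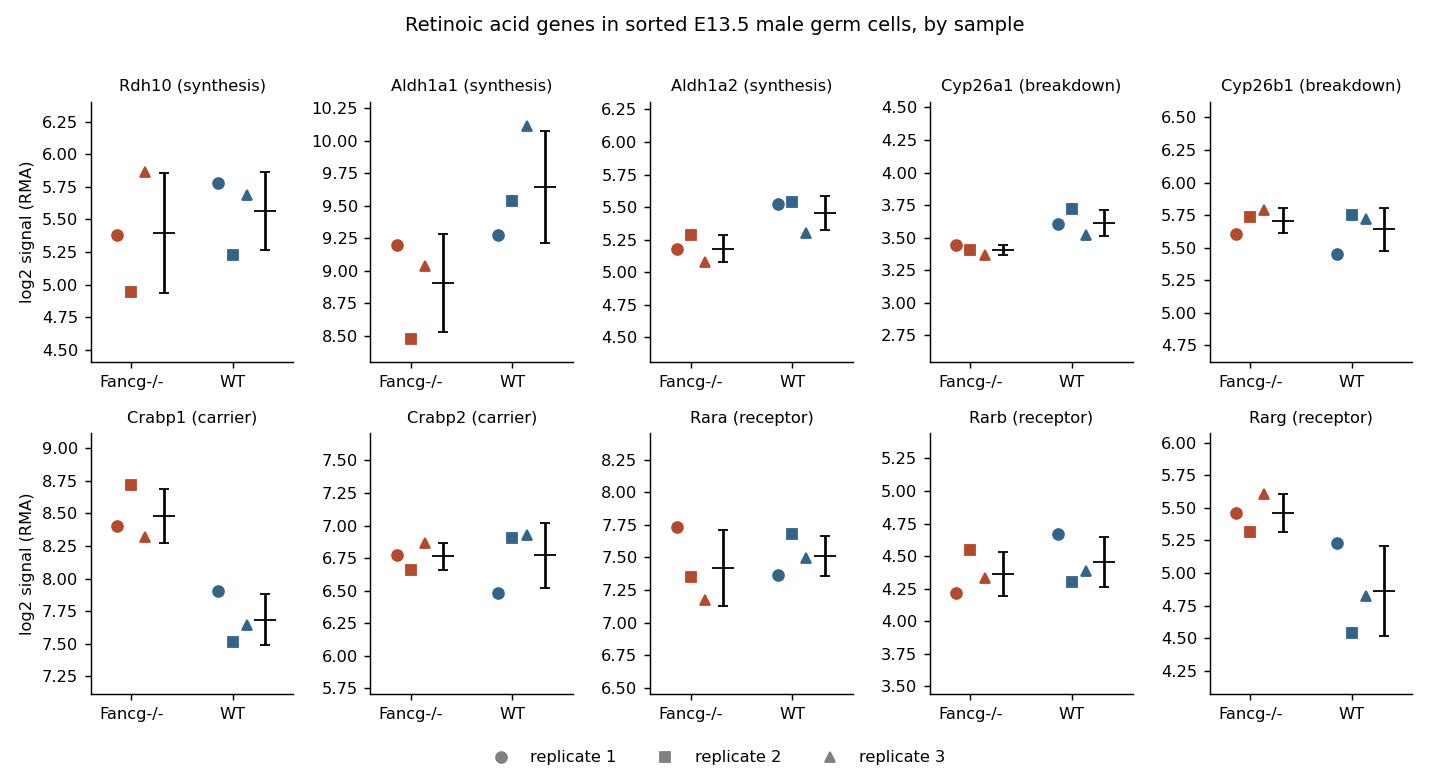
Log2 signal (y axis, RMA, each panel spanning 2 log2 units) of the 10 retinoic acid genes in 3 Fancg-/- and 3 WT samples, with symbols for the replicate number and black bars for the mean ± SD. The groups are apart for Crabp1 and Rarg, higher in Fancg-/-, and for Aldh1a1, Aldh1a2 and Cyp26a1, lower in Fancg-/-.

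Among the genes of synthesis, Aldh1a1 was the brightest row, with 95.3% of named rows dimmer. Its log2 signals were 9.20, 8.48 and 9.04 in Fancg-/- samples, against 9.28, 9.54 and 10.11 in WT samples. Fancg-/- replicate 2 was the lowest and WT replicate 3 the highest, and the gap between the groups, from Fancg-/- replicate 1 to WT replicate 1, was small beside the spread within them. The mean was 8.90 ± 0.38 in Fancg-/- samples and 9.64 ± 0.43 in WT samples (SD, n = 3 each), a difference of -0.74 (standard error 0.25, 95% interval -1.31 to -0.16, adjusted p = 0.31 from limma). Without WT replicate 3 the difference was -0.50, and without Fancg-/- replicate 2 it was -0.52.

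Sertoli cells of the fetal mouse testis express Aldh1a1, and the Sertoli cell markers differed between the same samples. Their mean over 12 genes was 6.94, 6.41 and 6.98 in Fancg-/- samples, against 6.79, 7.08 and 7.62 in WT samples. Here too Fancg-/- replicate 2 was the lowest and WT replicate 3 the highest, but the groups overlapped. Of the 12 markers 11 had a difference below 0, with a median of -0.43. Sox9, the factor that sets Sertoli cell fate, had 5.67 to 6.78 in Fancg-/- samples and 6.53 to 7.51 in WT samples, above the array medians throughout. The part of these cells in the Aldh1a1 values was not tested, and fewer cells of a type and less RNA per cell cannot be told apart in bulk samples.

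Aldh1a2, which makes retinoic acid in the mesonephros beside the gonad, had 5.18, 5.29 and 5.08 in Fancg-/- samples, against 5.52, 5.54 and 5.30 in WT samples. The groups did not overlap, although Fancg-/- replicate 2 and WT replicate 3 lay close together. The difference was -0.27 (standard error 0.10, 95% interval -0.51 to -0.03, adjusted p = 0.35 from limma). Mesonephric and coelomic epithelium markers, 9 genes, had a mean of 4.51 to 4.66 in Fancg-/- samples and 4.53 to 4.68 in WT samples, with 6 of 9 above 0 and a median difference of 0.05. Of the 9, 8 lay below the median row, where signal over background limits what a like mean can show.

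Rdh10, the enzyme of the first oxidation step, varied more within the groups than 97.1% of named genes. It had 5.38, 4.94 and 5.86 in Fancg-/- samples, against 5.78, 5.23 and 5.69 in WT samples, and Fancg-/- samples were both the highest and the lowest of the 6. Its difference of -0.17 had a 95% interval of -0.73 to 0.39, and the sign turned without Fancg-/- replicate 2 (0.06). The 3 synthesis genes thus all had a difference below 0, as did 11233 of 23837 named genes. That of Rdh10 was within the spread of the samples. Among 19 further retinol and retinal enzymes, 10 had a difference above 0, Aldh1a3 (0.15) being 1 of them.

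Of the breakdown enzymes, Cyp26b1 is the one known to protect fetal male germ cells from retinoic acid. Its signals were 5.60, 5.73 and 5.79 in Fancg-/- samples, against 5.45, 5.75 and 5.72 in WT samples. The groups overlapped, with the highest value in Fancg-/- replicate 3 and the lowest in WT replicate 1. The difference was 0.07 (standard error 0.11) with an adjusted p of 0.86 from limma. Its 95% interval of -0.19 to 0.33 bounds the size of a difference in either direction in these sorted samples. Without WT replicate 1 the difference was -0.03. The samples were sorted for PGCs, but Sertoli cell markers also had signal, with means over the 6 samples from 3.61 (Fgf9) to 9.28 (Clu). The Cyp26b1 signal is therefore not assigned to a cell type, and it does not give the level in the Sertoli and interstitial cells of the gonad. Markers of Sertoli cells and of interstitial and stromal cells had median differences of -0.43 and -0.26 in the same samples. The part of these cells in the Cyp26b1 values was not tested.

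Cyp26a1, one of the 2 genes with a DR5 element in its window, had 3.45, 3.40 and 3.37 in Fancg-/- samples, against 3.60, 3.72 and 3.52 in WT samples. Each Fancg-/- sample lay below each WT sample. The difference was -0.21 (standard error 0.09, 95% interval -0.42 to -6.8e-05, adjusted p = 0.40 from limma), so that the interval reached almost to 0. This row was dim, with 27.0% of named rows dimmer, and the values used hold no detection call for it. The third family member, Cyp26c1, had 4.04, 3.999 and 4.12 in Fancg-/- samples, against 3.79, 3.87 and 3.91 in WT samples, a difference of 0.19 (standard error 0.09) with an adjusted p of 0.42 from limma.

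The carriers CRABP1 and CRABP2 are paralogs that bind retinoic acid in the cytoplasm. CRABP2 is known to hand it to the receptors, and CRABP1 is mostly linked to holding it or passing it to breakdown. Crabp1 had log2 signals of 8.40, 8.72 and 8.32 in Fancg-/- samples, against 7.90, 7.51 and 7.64 in WT samples. The lowest Fancg-/- sample, replicate 3, lay above the highest WT sample, replicate 1. The mean was 8.48 ± 0.21 in Fancg-/- samples and 7.69 ± 0.20 in WT samples (SD, n = 3 each), and the difference was 0.79 (standard error 0.14, 95% interval 0.46 to 1.12), or 1.73-fold (1.38 to 2.18). By its unadjusted p of 0.00058 from limma it ranked 90 of 23837 genes, and it did not pass the adjustment (adjusted p = 0.15). The difference stayed between 0.68 and 0.90 over all 14 alternatives that were run, with adjusted p from 0.070 to 0.40.

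Crabp2 had 6.77, 6.66 and 6.86 in Fancg-/- samples, against 6.49, 6.91 and 6.93 in WT samples. WT samples were both the highest and the lowest. Its difference was -0.01 (95% interval -0.33 to 0.31), and its sign turned in 4 of the 14 alternatives. The log2 ratio of Crabp1 to Crabp2 within each array was 0.80 higher in Fancg-/- than in WT samples, with groups that did not overlap (p = 0.1 by the exact permutation test). With Crabp2 at -0.01, this ratio restates the Crabp1 difference and is not a further result.

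Endothelial markers also differed between these samples. Their mean over 8 genes was 5.29, 5.74 and 5.47 in Fancg-/- samples, against 5.42, 4.99 and 4.98 in WT samples. As with Crabp1, Fancg-/- replicate 2 was highest and WT replicate 1 the highest of the WT samples, but unlike Crabp1 the groups overlapped. The germ cell marker mean shared both features and had groups apart. It was 9.38, 9.40 and 9.39 in Fancg-/- samples, against 9.35, 9.33 and 9.28 in WT samples. All 8 endothelial markers had a difference above 0, from 0.07 (Kdr) to 0.86 (Tek), with a median of 0.35. Tek, an endothelial receptor kinase, had 4.81 to 6.04 in Fancg-/- samples and 4.42 to 4.92 in WT samples, with overlap. Cdh5 was highest in WT replicate 1, at 7.09. Pecam1, at 9.70 to 10.05 in Fancg-/- samples and 9.45 to 9.72 in WT samples, is known to be expressed by PGCs as well. Whether endothelial cells took part in the Crabp1 values was not tested. The genes whose profile over the 6 samples lay closest to that of Crabp1, by the root mean square difference of centred log2 signals, were S100a16 (0.080), Stard8 (0.082), Rnu3a (0.088), Car2 (0.093) and Tmem120a (0.095). They were chosen for this closeness, so their like difference between the groups follows from the choice.

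Of the receptor genes, Rara is expressed broadly, and Rarb is a target of retinoic acid itself. Rarg had 5.46, 5.31 and 5.61 in Fancg-/- samples, against 5.23, 4.54 and 4.82 in WT samples. All 3 Fancg-/- samples lay above WT replicate 1, the highest WT sample, with Fancg-/- replicate 2 the closest to it. The mean was 5.46 ± 0.15 in Fancg-/- samples and 4.86 ± 0.35 in WT samples (SD, n = 3 each), a difference of 0.60 (standard error 0.17, 95% interval 0.19 to 1.00, adjusted p = 0.25 from limma). It was 0.78 without WT replicate 1 and 0.43 without WT replicate 2.

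Rara had 7.74, 7.35 and 7.17 in Fancg-/- samples, against 7.37, 7.68 and 7.49 in WT samples. Fancg-/- samples were the highest and the lowest, and the difference of -0.09 had a 95% interval of -0.46 to 0.27. Rarb, with its DR5 element, had 4.21, 4.55 and 4.33 in Fancg-/- samples, against 4.67, 4.30 and 4.38 in WT samples. The groups overlapped, and the difference of -0.09 had a 95% interval of -0.39 to 0.22. Rarb was dim as well, with 44.4% of named rows dimmer, so that the 2 members with a DR5 element are also the 2 whose signal lay below that of the median row.

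Within the array, the log2 ratio of Rarg to Rarb was 0.69 higher in Fancg-/- than in WT samples with groups apart (exact two-sided permutation test, p = 0.1), and that of Rarg to Rara was 0.69 higher with groups that overlapped (p = 0.2 by the same exact test). For Aldh1a1 to Aldh1a2 it was -0.47 (p = 0.5, exact) and for Cyp26b1 to Cyp26a1 0.28 (p = 0.2, exact), both with overlap. In all, 5 pairs were compared, and none can pass a threshold of 0.05 with 3 samples against 3. Each ratio difference follows from the differences already given for its genes. The receptor partners of the RXR family had differences of -0.10 (Rxra), -0.13 (Rxrb) and 0.22 (Rxrg), with adjusted p from 0.56 to 0.72 (limma).

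**Figure D2:**
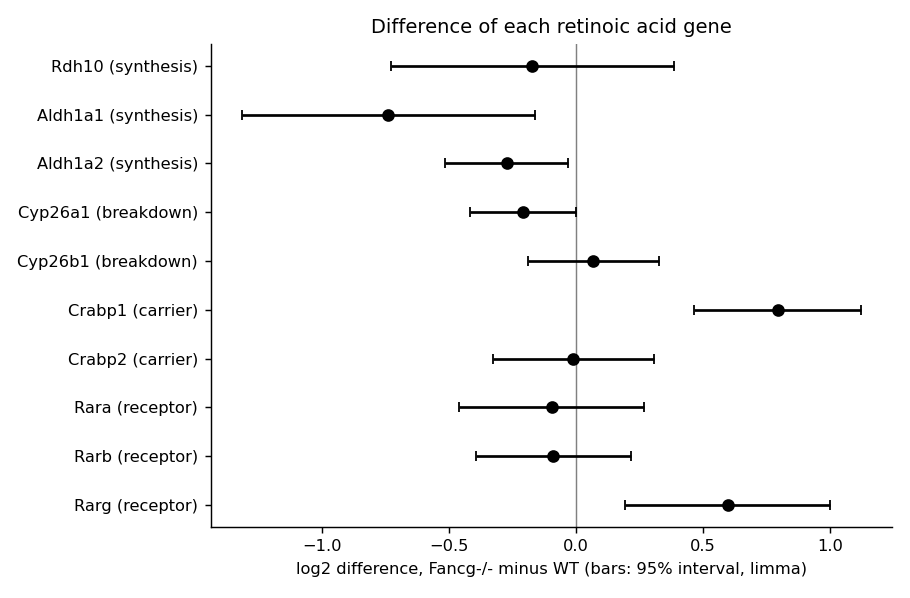
Log2 difference, Fancg-/- minus WT (x axis), of the 10 genes in the order synthesis, breakdown, carriers and receptors, as points with 95% intervals from limma. The intervals of Crabp1 (0.46 to 1.12) and Rarg (0.19 to 1.00) lie above 0, those of Aldh1a1, Aldh1a2 and Cyp26a1 lie below it, and none of the 10 passed the adjustment over all named genes.

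Beyond these 10, a list of 44 genes of retinol uptake, storage, oxidation and receptor function held none that passed the adjustment. At an unadjusted p under 0.05 there were 0 higher and 4 lower, against 6.23% and 6.17% of all named genes, with a median difference of -0.01. The 4 lower became 7 without WT replicate 1, 1 without WT replicate 3, and 2 without WT replicate 2 or Fancg-/- replicate 1 or 3. Groups were apart for 3 genes of the list that were higher and 4 that were lower, against 9.45% and 8.45% of all named genes. The lowest was Adh1, an alcohol dehydrogenase that can oxidise retinol. It had 5.48, 6.02 and 6.48 in Fancg-/- samples, against 7.05, 7.08 and 7.50 in WT samples, and each Fancg-/- sample lay below each WT sample. Its difference was -1.22 (standard error 0.25, 95% interval -1.79 to -0.65, adjusted p = 0.17 from limma), or 2.33-fold lower. Adh4, of the same family, had a difference of -0.27 (adjusted p = 0.32) and was dim, at 3.33 to 3.54 in Fancg-/- samples and 3.68 to 3.80 in WT samples.

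Dhrs3, which reduces retinal back to retinol and is induced by retinoic acid, had 5.09, 5.50 and 5.17 in Fancg-/- samples, against 5.33, 5.80 and 5.89 in WT samples. The groups overlapped, and the difference was -0.42 (standard error 0.17) with an adjusted p of 0.38 from limma. Med1, a subunit of the Mediator complex that nuclear receptors bind, had a difference of -0.25 (adjusted p = 0.32 from limma). Stra6, the receptor that takes up retinol, and Aldh1a3 had differences of -0.23 and 0.15 with overlapping groups.

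Markers of steroid-making and stromal cells also lay lower on average in Fancg-/- samples. The 5 Leydig cell markers, Cyp11a1 among them, had a mean of 4.43, 4.001 and 4.72 in Fancg-/- samples. In WT samples it was 5.72, 6.20 and 6.35. All 5 had a difference below 0 with groups apart, where 8.45% of all named genes were apart and lower. The 10 interstitial and stromal markers had a mean of 5.88, 5.73 and 5.63 in Fancg-/- samples, against 5.74, 6.23 and 6.09 in WT samples, with 9 of 10 below 0 and groups that overlapped. In both lists WT replicates 2 and 3 were the highest samples. Their part in the values of Adh1 and Dhrs3 was not tested.

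**Figure D3:**
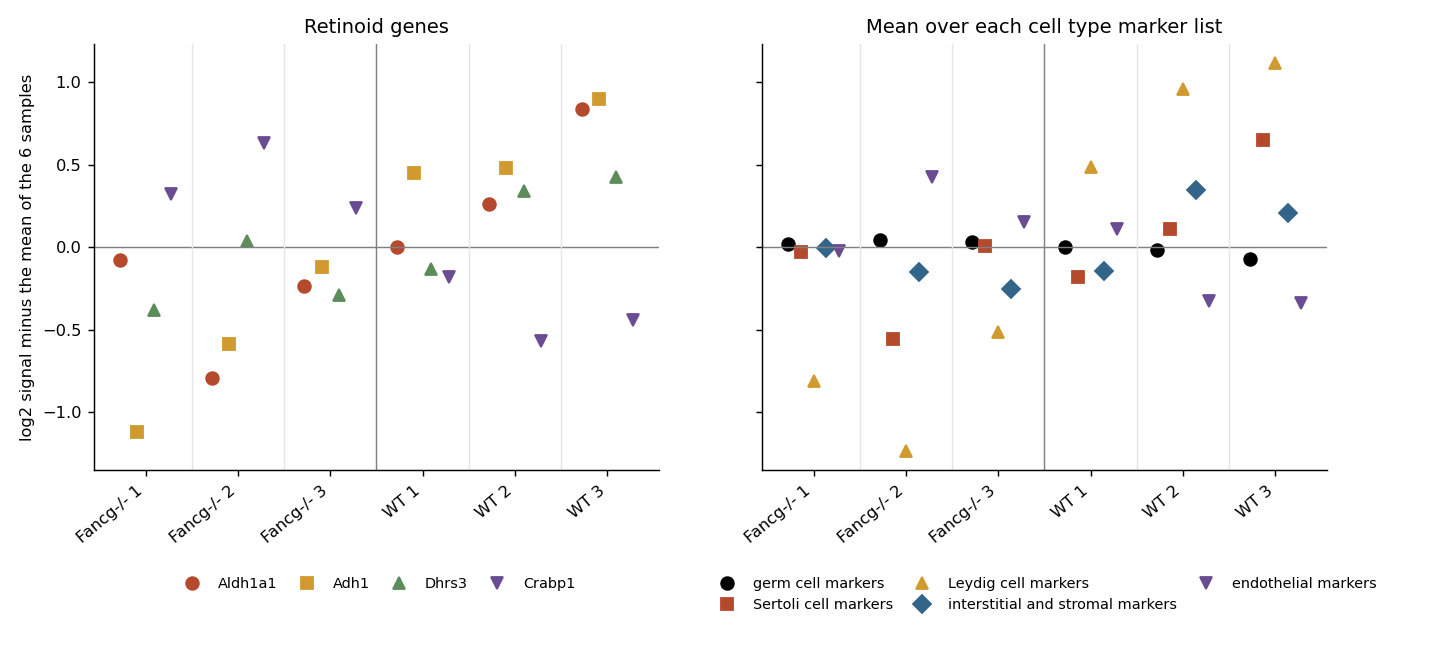
Log2 signal of 4 retinoid genes (left) and mean log2 signal over each of 5 cell type marker lists (right), each minus its own mean over the 6 samples (y axis), by sample on the x axis with Fancg-/- on the left of each panel. The points of 1 sample are spread sideways only to keep them apart. The germ cell mean stays near 0 in all samples, while the Leydig cell mean lies below 0 in all Fancg-/- samples. Aldh1a1, Adh1, Dhrs3 and the Sertoli and Leydig cell means are highest in WT replicate 3.

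Genes known to respond to retinoic acid were read as a further list, of which 26 were measured. None passed the adjustment, and at an unadjusted p under 0.05 there were 0 higher and 3 lower, against 6.23% and 6.17% of all named genes, with a median difference of -0.08. The 3 lower became 6 without WT replicate 1 and 1 without WT replicate 2 or 3 or Fancg-/- replicate 3. Groups were apart for 1 gene of the list that was higher and 3 that were lower, against 9.45% and 8.45% of all named genes. Stra8, the gene through which retinoic acid starts meiosis, had 3.71, 3.05 and 3.21 in Fancg-/- samples, against 3.34, 3.93 and 3.59 in WT samples. The groups overlapped, the difference was -0.30 (95% interval -0.77 to 0.17, adjusted p = 0.61 from limma), and 26.3% of named rows were dimmer. Rec8, the meiotic cohesin that retinoic acid induces with it, had a difference of -0.06 (95% interval -0.37 to 0.24).

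The 3 lower genes were Nr2f1, Dhrs3 and Meis1. Nr2f1, a nuclear receptor, had 5.88, 5.85 and 5.86 in Fancg-/- samples, against 6.21, 6.41 and 6.25 in WT samples. The groups were apart, and the difference was -0.42 (standard error 0.09, 95% interval -0.64 to -0.21, adjusted p = 0.17 from limma). Meis1, a homeobox cofactor of the Hox proteins, had a difference of -0.43 with overlapping groups (adjusted p = 0.40 from limma). The interstitial and stromal markers given above had differences below 0 in 9 of 10, and their part in these values was not tested. Of the 13 homeobox genes on the list, among them Hoxb2 (-0.19, groups apart), 7 had a difference above 0 and 6 below it, and 10 of the 13 lay below the median row.

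**Figure D4:**
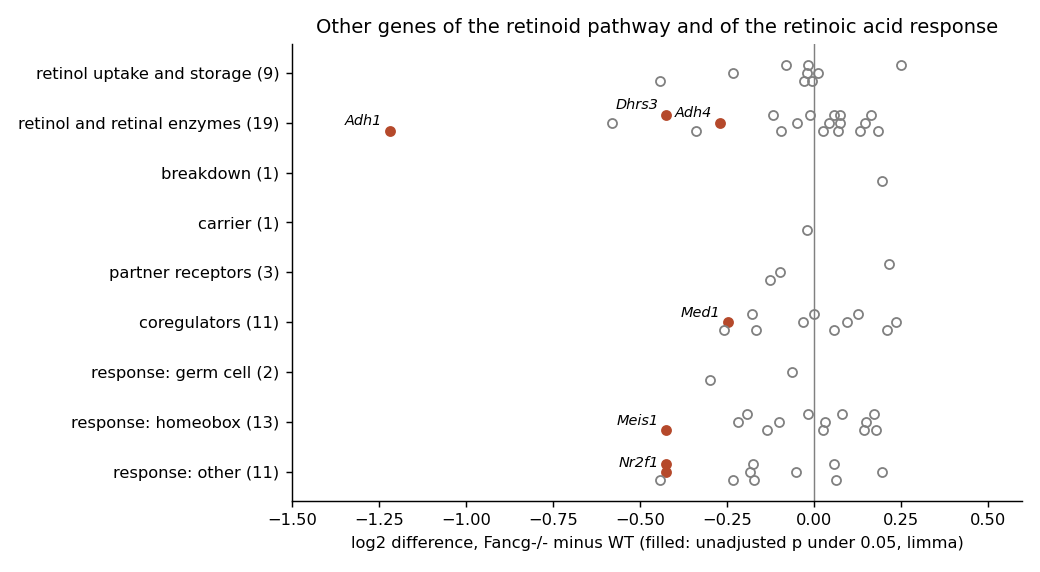
Log2 difference, Fancg-/- minus WT (x axis), of 44 further genes of the retinoid pathway and 26 genes of the retinoic acid response, by role with the number of genes in each. Each point is 1 gene (5 are in both lists, Dhrs3 among them), filled where the unadjusted p from limma was under 0.05. All filled points lie below 0, with Adh1 at -1.22 farthest from it. Over all named genes 6.23% were higher and 6.17% lower at this p.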

How the data were processed

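The authors deposited log2 signals of Affymetrix arrays, normalized by RMA. RMA and Partek are named in the submitters' processing notes, with no version, and no genome build is named in the sources used here. RMA sets the arrays to a common distribution, so a shift shared by most genes would not be seen. Of 24479 rows, 23837 were named by Entrez ID through RefSeq or the platform annotation, and 642 without a name were not tested. Differences were fitted with limma 3.58.1 (lmFit, eBayes) in R 4.3.3, with no block. P-values were adjusted by Benjamini-Hochberg over the named genes, and a call was an adjusted p under 0.05. The procedure was tested on simulated data. The samples are separate pools of embryos. Arrays have no read depth, and their number limits the precision.

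The 10 genes, the lists and the tests were chosen with earlier results of these data known. Of the further pathway and response genes, those named are the 5 of each list with the smallest p and a few named in any case. Meiosin, Insl3 and Lyz2 were not found under these names and are not analysed here. A further gene of the lists is not reported here. Replicate numbers did not pair the samples: deviations from the group means correlated at -0.14, -0.11 and 0.03 in pairs 1, 2 and 3.

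Alternatives were the methods' test per gene, an intensity trend with a robust prior, a further quantile normalization, equal array medians, array weights, the replicate number as a block, leaving out the dimmest 25% of genes, adding unnamed rows and leaving out each sample.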

Additional observations from a re-analysis of the deposited data

How the results depend on the processing

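None of the 10 genes passed the adjustment over all named genes in any of the 14 alternatives. Of 140 values of single genes 132 kept their direction. The methods' test, the intensity trend, the replicate block, leaving out the dimmest genes and adding unnamed rows left each difference unchanged. A sign could not turn under these settings. Crabp1, Rarg, Aldh1a1, Aldh1a2 and Cyp26a1 kept their direction throughout. Their groups were apart, so leaving out 1 sample or weighting the arrays could not turn their sign. The sign turned for Crabp2 with equal array medians (0.0120), and on leaving out 1 sample for Crabp2 (-0.153 to 0.0685), Rdh10 (-0.405 to 0.0572), Cyp26b1 (-0.0270 to 0.124), Rara (-0.254 to 0.0290) and Rarb (-0.179 to 0.0211). Genes called over the whole array numbered 0 to 3 on leaving out 1 sample, the 3 without WT replicate 1 and none of them among the 10.

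At an unadjusted p under 0.05 the higher genes among the 10 numbered 1 by the methods' test and 2 on leaving out any sample. The lower ones numbered 1 with the intensity trend, equal array medians or array weights, and 1 to 2 on leaving out a sample. In the pathway list higher genes numbered 1 by the methods' test or with the trend, 2 with equal medians and 0 to 2 on leaving out a sample, and lower ones 2 with the replicate block and 1 to 7, the 7 without WT replicate 1. In the response list higher genes numbered 1 by the methods' test or with equal medians and 0 to 1 on leaving out a sample, and lower ones 5 with array weights and 1 to 6, the 6 without WT replicate 1. The cause was not tested. With the replicate block 2 of the 10 were higher and 2 lower, 0 genes were called and 1193 were higher and 1287 lower unadjusted over the array, and 2 of 6 samples correlated best with their own number. Leaving out the dimmest genes or adding unnamed rows kept every count within 1.5 times. Signal over background limits the rows described that lay below the median row, Cyp26a1, Rarb, Cyp26c1, Adh4, Aldh1a3, Rxrg, Stra8 and Hoxb2 among them.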
